A study of Mus musculus with 2 samples.

Results

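Among the cells of proliferative urothelial organoids that were not set aside as mitotic, 1617 cells with the highest level of a basal gene score were examined. They made up 23.7% of the 6818 cells kept from proliferative organoids (P), while 11714 cells were kept in the whole series. A cell was kept if it held over 800 detected genes and at most 12% of its unique molecular identifiers (UMIs, the tags that count captured RNA molecules) came from mitochondrial genes. Cells with at least 3 of 12 mitotic genes, such as Mki67, Top2a and Ccnb1, were set aside as mitotic (353 cells). Of the 6465 cells left, members were selected on the mean of ln(1 + 10000 × UMI share) over 9 genes: Wnt10a, Jag2, Dll1, Col17a1, Itga6, Itgb4, Trp63, Ptprz1 and Ctla2a. The 25% with the highest score formed the basal members, and the other 4848 non-mitotic cells of P formed the comparison group.

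The organoids were grown from normal urothelium of wild type C57BL/6 mice that were 8 to 10 weeks old, and single cells were profiled by droplet-based RNA sequencing with the 10x Chromium 3′ v3 chemistry. P organoids were kept in complete medium, which held EGF, WNT3A, RSPO1, Noggin and the TGF-β receptor inhibitor LY2157299. Differentiated organoids (D) had been moved to a medium without these factors. Each condition held 1 library, so that the cells of a single culture stood for a condition and no p-value was calculated. Intervals in the text are exact at 95% (Poisson for a level, conditional binomial for a ratio, Clopper-Pearson for a share) and cover counting error only.

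Basal cells are the deepest layer of the urothelium and rest on the basement membrane. Hemidesmosomes, built on the integrin α6β4 and the collagen XVII transmembrane protein, anchor them there, and the transcription factor TP63 maintains basal identity in stratified epithelia. WNT10A is a secreted ligand of Frizzled receptors, and JAG2 and DLL1 are membrane-bound ligands that activate Notch receptors on neighbouring cells.

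The cut of the score lay at 0.455. The member with the lowest score had 0.4547 and the highest cell outside had 0.4547, and 241 cells lay within 0.02 of the cut. The members are the upper range of a score and were not examined as a separate population. The median score was 0.622 in members, 0.168 in the other non-mitotic cells and 0.471 in the mitotic cells. A score of 0 was found in 1335 cells (20.6% of the non-mitotic cells), and 191 of the 353 mitotic cells (54.1%) lay above the cut. Members held a median of 3030 UMIs and 1073 genes per cell, and the other non-mitotic cells 3525.5 UMIs and 1166 genes. The median mitochondrial share was 5.26% and 6.11%, and ribosomal protein genes took 39.6% and 37.1% of UMIs. Both libraries shared 10 barcodes, of which 1 belonged to a member and to a kept cell of D.

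No member carried all 9 score genes. The median was 3 score genes with at least 1 UMI per member and 1 in the other cells, and 4 members reached 7. At least 4 score genes were found in 41.9% of members and in 0.825% of the others. Because the score chose the members, these counts and the levels in the next paragraph are a description of the rule.

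The hemidesmosome genes and Trp63 were the score genes most often detected. Col17a1 (ENSMUSG00000025064, chromosome 19, 47646344 to 47692094 on GRCm38) stood at 598 counts per 1000000 UMIs (CPM) in members (577 to 619) and at 136 in the other non-mitotic cells (131 to 141). Trp63 (chromosome 16, 25683763 to 25892102) stood at 340 CPM and 90.2 CPM. Itga6, which encodes CD49f, stood at 287 and 98.4 CPM, and its partner Itgb4 at 211 and 29.8 CPM. The signalling ligands were sparser. Wnt10a (ENSMUSG00000026167, chromosome 1, 74791516 to 74804179) stood at 100 CPM in members (549 UMIs) and 9.41 in the others (184 UMIs). Jag2 (chromosome 12, 112907819 to 112929776) stood at 106 and 13.1 CPM, and Dll1 (chromosome 17, 15367354 to 15376872) at 28.5 and 2.35 CPM. Ptprz1, a receptor-type tyrosine phosphatase, stood at 19.4 and 1.64 CPM.

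Ctla2a, which encodes an inhibitor of cathepsin L-like proteases, did not mark the members as a group. It was found in 31 of 1617 members (1.92%, 1.31 to 2.71%), and its 129 UMIs in members were unevenly spread, with a variance 15.2 times the value that counting alone gives. Its close paralog Ctla2b had 0 UMIs in members and 1 in the other cells. A score without Ctla2a selected 99.4% of the same members.

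Each score gene was also described in cells chosen without it. It was left out in turn, members were chosen again on the other 8 genes, and its level was then compared. All 9 genes stayed higher in the cells so chosen. Dll1 was at 20.6 CPM against 4.55 (log2 ratio 2.18), and Wnt10a was at 71.5 against 17.4 CPM (2.04, 1.82 to 2.25). Jag2 was at 73.4 against 22.1 CPM (1.73, 1.53 to 1.93). Each ligand was thus higher in cells picked by the other 8 score genes. The 9 genes were chosen as a set with earlier results of these data known, so these ratios describe how they go together and test nothing. Ratios were also positive for Ptprz1 (2.25), Ctla2a (1.89), Itgb4 (1.63), Col17a1 (1.27) and Trp63 (1.01), and the value for Itga6 was 0.79, under 2-fold. The cells so chosen shared 80.0% to 99.4% of their number with the members. When each score gene was left out in D in the same way, ratios were 2.35 for Wnt10a, 2.56 for Jag2, 2.55 for Dll1 and 1.68 for Col17a1, and Ptprz1 had only 4 UMIs there.

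**Figure D1:**
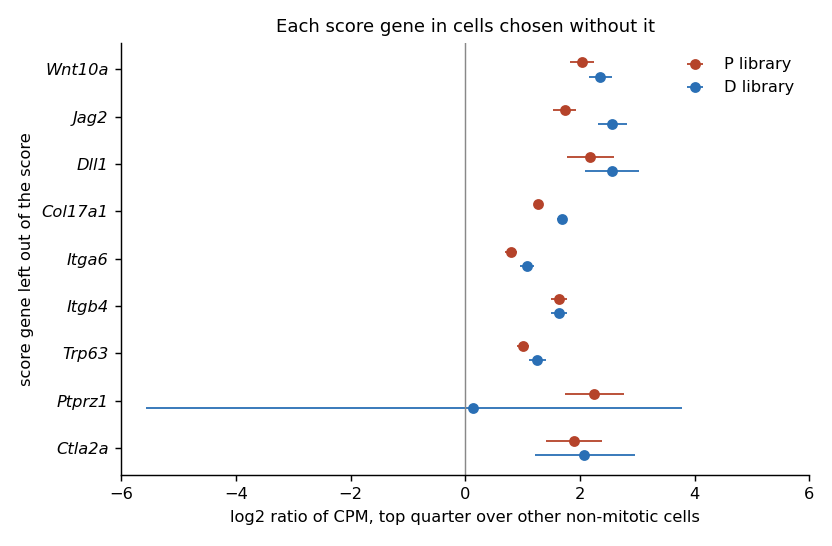
Log2 ratio of each score gene between cells chosen on the other 8 genes and the other non-mitotic cells, in P and in D, with exact 95% counting intervals. Each P value lies above 0, from 0.79 for Itga6 to 2.25 for Ptprz1, and the interval of Ptprz1 in D is wide because it rests on 4 UMIs.

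Pairs of score genes were also counted in the same cells, over 6372 non-mitotic cells each thinned to 2000 UMIs. The number of cells with both genes was above the product of their shares for 32 of 36 pairs, with a median ratio of 1.58. Wnt10a and Jag2 were detected together in 66 cells where independence gives 27.04 (ratio 2.44). Wnt10a and Dll1 shared 20 cells where 7.31 were given by independence (2.74). The 4 pairs at or below 1 all held Ctla2a. These are descriptions over sparse counts of 1 library.

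Beyond the genes of the score, basement membrane and anchoring genes were higher in members, and genes of the upper layers were lower. Over 9257 genes with at least 100 UMIs, the score genes left out, 359 were at least 2-fold higher in members, which is 3.88% of the genes tested, and 422 were at least 2-fold lower (4.56%). The median log2 ratio of all genes tested was 0.12. Higher genes made up 46.0% of the calls, and 33.8% (255 higher, 499 lower) when the median of genes with at least 100 UMIs in each group was set to 0, a shift of 0.13. In what follows, a gene is called higher or lower only past this 2-fold limit, and other genes are given by their values. All these genes were measured in the same cells that the score divided, so the comparison in P describes the members and tests nothing.

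Of 19 hemidesmosome and basement membrane genes tested, 11 were higher in members and 0 were lower, with a median log2 ratio of 1.39. Their summed level was 1417 CPM in members and 671 in the other cells. Col18a1, a basement membrane collagen, was at 98.2 against 23.2 CPM (log2 ratio 2.08). Bcam, a laminin α5 receptor, was at 150 against 39.3 CPM (1.94). Col7a1, the collagen of anchoring fibrils, was at 21.6 against 5.62 CPM (1.94). These genes all encode proteins at the base of the cell. Among laminin chains, Lamb3 (1.89) and Lama3 (1.43) were higher, while Lama5 was level between the groups (0.01, −0.16 to 0.18). Dst, which links hemidesmosomes to keratin filaments, was at 400 against 153 CPM (1.39).

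Among 7 integrins outside the score, 2 were higher and 0 were lower, with a median of 0.37. Itga3, the α chain of a laminin receptor, was at 83.6 against 26.4 CPM (1.66, 1.48 to 1.85), and Itgb6, which pairs with the αv chain and can activate latent TGF-β, was at 52.9 against 21.2 CPM (1.32). Itgb1 had 203 against 108 CPM (0.91), under the 2-fold limit.

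The basal keratins did not move together. Of 11 basal keratins and surface markers, 4 were higher and 2 were lower, with a median of 0.58. Krt14 (ENSMUSG00000045545, chromosome 11, 100203162 to 100207548), the keratin of basal cells in stratified epithelia, was at 3707 CPM in members and 1151 in the other cells (log2 ratio 1.69, 1.66 to 1.71). Krt17, a keratin of basal and injured epithelium, was at 97.9 against 28.1 CPM, although reads of close keratin paralogs may be shared. Ngfr, the low-affinity nerve growth factor receptor, was at 21.0 against 5.52 CPM (1.93), and Cdh3, which encodes P-cadherin, at 36.2 against 12.9 CPM (1.49). Krt5, in contrast, was level, with 3414 CPM in members and 3571 in the others. Krt15 had 2058 against 1984 CPM, and Cd44 had 92.8 against 95.1 CPM. The members were thus set apart by Krt14 and not by Krt5, Krt15 or Cd44. Krt6a (156 against 666 CPM, −2.09) and Ly6d (1624 against 3992 CPM, −1.30) were lower in members.

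The promoters of Krt14 and Cald1 are shown as those of a keratin and an actin-binding protein that were higher in members, and that of Ctla2a as the score gene found in the fewest members. Sequences are the 250 bases before the start of each gene from RefSeq on GRCm38.p6, read 5′ to 3′ on the strand of the gene. Capitals mark GGAATG (the core of TEAD sites) in Krt14, GAGCATGCCT (a match of the p63 half-site) and GGAATG in Cald1, and TGACTCA in Ctla2a, which is the AP-1 consensus TGAGTCA read on the other strand. The window of Krt14 lies inside the gene as given above, since RefSeq places its start at another position than the annotation used for the gene coordinates. By that annotation the window is not upstream of Krt14, so its letters may not be those of the promoter.
Krt14, chr11:100206031-100206280, minus strand: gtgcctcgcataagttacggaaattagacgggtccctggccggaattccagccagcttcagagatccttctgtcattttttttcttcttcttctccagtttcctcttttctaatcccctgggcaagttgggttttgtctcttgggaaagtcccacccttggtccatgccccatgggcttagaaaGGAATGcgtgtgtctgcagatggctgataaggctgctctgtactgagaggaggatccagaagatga
Cald1, chr6:34598254-34598503, plus strand: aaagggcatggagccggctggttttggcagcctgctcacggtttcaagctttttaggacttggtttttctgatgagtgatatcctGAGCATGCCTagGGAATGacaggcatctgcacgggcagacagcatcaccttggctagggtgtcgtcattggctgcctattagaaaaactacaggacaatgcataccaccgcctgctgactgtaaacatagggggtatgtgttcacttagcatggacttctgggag
Ctla2a, chr13:60936626-60936875, minus strand: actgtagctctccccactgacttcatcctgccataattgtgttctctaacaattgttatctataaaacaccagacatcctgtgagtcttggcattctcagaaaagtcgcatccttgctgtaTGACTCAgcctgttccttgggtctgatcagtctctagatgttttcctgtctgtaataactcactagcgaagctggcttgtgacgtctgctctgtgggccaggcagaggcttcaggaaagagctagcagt

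The TEAD letters lay 66 bases before the start that RefSeq gives for Krt14, which is inside the gene by the other annotation. In Cald1, the p63 letters began 165 bases before the start and the TEAD letters 153 bases before it, with no overlap. The AP-1 letters lay 129 bases before the start of Ctla2a. On both strands of 300-base windows, the p63 half-site was held by 10.9% of 276 promoters of genes higher in members, 9.21% of 304 promoters of lower genes and 6.81% of 7328 promoters of genes tested. GGAATG was held by 13.8%, 14.8% and 11.2%, and TGAGTCA by 5.43%, 8.55% and 3.55%. TCAAAG (TCF/LEF) was held by 10.1%, 13.5% and 11.01%, GTGGGAA (RBPJ) by 5.80%, 5.59% and 5.95%, and CAGCTG (E-box) by 15.2%, 21.1% and 13.8%. Over all 27025 promoters in the table, the shares were 8.37% for the p63 half-site, 14.6% for GGAATG, 5.17% for TGAGTCA, 16.2% for TCAAAG, 6.39% for GTGGGAA and 16.1% for CAGCTG. A match describes the letters only. Of the score genes, 5 had a promoter in the table.

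No Wnt ligand outside the score that had at least 100 UMIs reached the 2-fold limit. Of 6 Wnt ligand and secretion genes tested, 0 were called in either direction, and the median was 0.70, with 5 ratios above 0 and that of Porcn, the enzyme that lipid-modifies Wnt proteins, at −0.16. Wnt4 (chromosome 4, 137277489 to 137299726) was at 314 against 168 CPM (log2 ratio 0.91, 0.82 to 0.99), and Wnt5a, a ligand of non-canonical signalling, was at 61.7 against 35.8 CPM (0.78). Wls, the carrier that all lipid-modified Wnt proteins need for secretion, was at 300 against 184 CPM (0.71). Wnt3a and Wnt6 were near the limit of detection, with 34 and 41 UMIs in members and 23 and 30 in the other cells. Their ratios were 2.40 (1.60 to 3.23) and 2.29 (1.58 to 3.02), and these low genes did not enter the count of calls.

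On the receiving side, 2 of 9 Wnt receptor genes were higher and 0 were lower (median 0.41). Fzd6 was at 69.0 against 32.5 CPM (1.09) and Fzd2 had a ratio of 1.02. Feedback genes and targets of the Wnt pathway showed no common direction, with 0 of 6 genes called and a median of 0.06. Axin2, a target that dampens the canonical pathway, had 41 UMIs in members and 39 in the other cells (1.91). It was too sparse to enter the count.

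Notch ligands outside the score did not move together. Of 2 ligands outside the score that could be tested, Dlk2, a non-canonical ligand of the Delta-like family, was at 38.6 CPM in members and 8.49 in the others (2.19, 1.88 to 2.49). Jag1 had 50.1 against 64.7 CPM (−0.37), under the 2-fold limit. Jag2 is a gene of the score, so its higher level in members was set in part by the rule. Notch1 had 153 against 107 CPM (0.52). Notch3 was lower in members, at 10.8 against 32.4 CPM (−1.59, −2.00 to −1.20), and Numbl, a relative of the Notch antagonist Numb, was higher (1.06), which made 1 of 9 receptors and modifiers called in each direction (median 0.12). Lfng, a glycosyltransferase that modifies Notch, had 32 UMIs in members and 26 in the other cells.

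Targets of Notch were mostly too sparse to test. Of 2 targets tested, Nrarp was lower, at 12.4 against 42.7 CPM (−1.78, −2.16 to −1.42), and Hes1 had 549 against 778 CPM (−0.50).

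Shares of cells were compared at equal depth, since members were shallower. After thinning to 2000 UMIs, which left out 46 members, 47 other non-mitotic cells and 9 mitotic cells, Wnt10a was detected in 18.1% of members (16.3 to 20.1%), 2.15% of the other non-mitotic cells and 12.8% of the mitotic cells. The unthinned shares were 27.3%, 3.47% and 26.6%. Wnt10a is a gene of the score, so its share in members was set in part by the rule and is a description. Krt14 was detected in 94.7%, 49.0% and 94.8%, and in 96.4% of members and 58.2% of the others before thinning. Notch3 was detected in 1.72% of members and 5.52% of the others at equal depth (3.40% and 11.9% unthinned), and Nrarp in 2.04% and 7.29% (3.83% and 14.6% unthinned). Hes1 was detected in 56.4% of members and 64.7% of the others (68.8% and 77.1% unthinned). No cell type that should lack these genes was resolved in the organoids, so the share that free RNA can give was not measured.

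**Figure D2:**
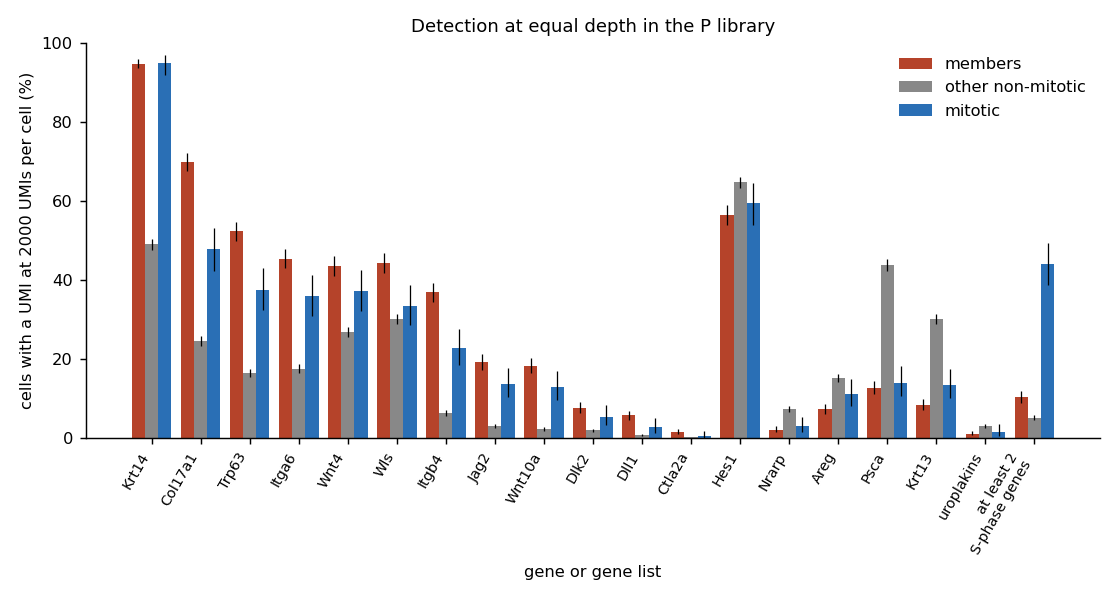
Share of cells with at least 1 UMI of each gene or list (at least 2 genes for the S-phase list) after every cell was thinned to 2000 UMIs, as bars from 0 for members, other non-mitotic cells and mitotic cells of P, with Clopper-Pearson 95% intervals. Krt14 reaches 94.7% of members and 94.8% of mitotic cells against 49.0% of the other cells, while Psca falls on the opposite side with 12.5%, 14.0% and 43.7%.

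The ligands and receptors of other growth factor pathways were also unequal. Of 10 EGF family genes, 2 were higher and 2 were lower (median −0.42). Nrg1, which encodes the ErbB ligand neuregulin 1, was at 22.0 against 5.62 CPM (1.96), and Nrg2 had a ratio of 1.64. Areg, the EGFR ligand amphiregulin, was lower, at 45.6 against 101 CPM (−1.15), as was its family's receptor Erbb2, at 12.4 against 26.8 CPM (−1.11). Egfr itself had a ratio of 0.58. The neuregulins were thus higher while amphiregulin was lower.

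Of 20 genes of the TGF-β and BMP pathway, 8 were higher and 1 was lower, with a median of 0.54. Inhba, the activin A subunit, was at 31.6 against 9.46 CPM (1.74), and Tgfbi, an extracellular matrix protein induced by TGF-β, was at 47.9 against 14.8 CPM (1.69). Id3, a target of BMP signalling, was at 43.0 against 14.6 CPM (1.56), while Id2 was the only lower gene of the list (−1.16). Tgfb2, Ltbp4 and Bmp2 were also higher (1.21, 1.41 and 1.32). The complete medium held Noggin and a TGF-β receptor inhibitor, which all cells of P received alike. Of 3 Hedgehog genes tested, Gli3 was higher (1.60) and the median was 0.42.

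Actin genes and targets of YAP and TEAD, which respond to mechanical cues, were called in 1 direction only, and many did not reach 2-fold. Of 13 actin and contractile genes, 6 were higher and 0 were lower (median 0.96). Cald1, an actin-binding protein, was at 35.1 against 8.23 CPM (2.09), Tpm1, a tropomyosin, at 331 against 158 CPM (1.07), and Flna, which crosslinks actin, had a ratio of 1.34. Of 8 YAP and TEAD targets, 4 were higher and 0 were lower (median 1.15), among them Ajuba (1.47), Axl (1.44), Crim1 (1.30) and Cyr61 (1.66). Acta2, the smooth muscle actin, was nearly absent from P, with 4 UMIs in members and 19 in the others. Of 15 adhesion and desmosome genes, 0 were higher and 3 were lower, namely Dsc2 (−1.15) and the connexins Gjb2 (−1.91) and Gjb6 (−2.46), and the median was −0.28.

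Markers of the upper layers were lower in members. Of 16 intermediate and suprabasal markers, 9 were lower and 0 were higher (median −1.24), and their summed level was 4082 against 10699 CPM. Psca (ENSMUSG00000022598, chromosome 15, 74714839 to 74717069), a surface protein that the study used as a marker of urothelial differentiation, was at 253 CPM in members and 2461 in the other cells (log2 ratio −3.28, −3.36 to −3.21). Krt13 was at 120 against 721 CPM (−2.59) and Krt19 at 1066 against 3386 CPM (−1.67). Cldn7, a tight junction protein, was at 36.8 against 146 CPM (−1.99), and Hopx at 29.1 against 214 CPM (−2.88). Uroplakins, the membrane proteins of luminal cells, had 30 UMIs in members and 504 in the others, and both that could be tested were lower (Upk1a −3.14, Upk1b −1.24). Among 11 urothelial transcription factors, Sox9 was higher (1.14), Pparg was lower (−1.98) and the median was −0.05.

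Genes of the cornified envelope, the protein coat of squamous cells, were lower as well. Of 21 tested, 15 were lower and 1 was higher (median −1.58), with 518 CPM in members and 2181 in the other cells. Flg, which encodes filaggrin, was at 34.2 against 274 CPM (−3.00), and Sprr1a at 137 against 890 CPM (−2.70). The exception was Lor, loricrin, which was at 23.8 against 6.14 CPM (1.95). Among the 15 genes that lay furthest below, Rptn encodes another envelope protein, repetin. It had 0 UMIs in members and 138 in the others, at least 12.9-fold lower against a floor of 3 UMIs in members. Sptlc3 had 2 UMIs against 162 (log2 ratio −4.50, −7.56 to −2.62), Sprr2d had 2 against 143 (−4.32, −7.38 to −2.44) and Olfr890 had 3 against 129 (−3.59, −5.88 to −2.01). The others were Ugt2b34 (−3.91), Krt6b (−3.87), Calml3 (−3.85), Sprr2f (−3.78), Rbp2 (−3.64), Trib2 (−3.60), Prss27 (−3.58), Fam3b (−3.40), Ppbp (−3.39), Gsta1 (−3.29) and Psca. Reads of the Sprr2, Krt6, Ugt2b and Gsta families can be shared between near copies, so values of single members are uncertain.

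The 15 genes that lay furthest above were led by secreted and matrix proteins, several of them sparse. Members held 77 UMIs of Ccl20, 87 of Col8a1 and 80 of Tnc, while Pi15 had 235 and Htra1 had 663. Ccl20, a chemokine that attracts CCR6-bearing leukocytes, was at 14.1 CPM in members and 2.35 in the other cells (2.58). Col8a1 was at 15.9 against 2.86 CPM (2.47), and Tnc, the matrix glycoprotein tenascin C, at 14.6 against 2.66 CPM (2.46). Htra1, a secreted serine protease, was at 121 against 30.0 CPM (2.01), and Pi15, a secreted protein with homology to protease inhibitors, at 43.0 against 8.85 CPM (2.28). Ctnnal1 (2.39), Cd34 (2.23), Gm4610 (2.21), Chst11 (2.11), Prss23 (2.10), Bnc1 (2.09), which encodes the basal keratinocyte factor basonuclin 1, and Pltp (2.01) came with them, beside Dlk2, Cald1 and Col18a1. Gm4610 is annotated as antisense, and how the counting used strand is not given in the sources used here.

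The rule left in cells with fewer than 3 of the 12 mitotic genes. At least 1 of these was detected in 8.72% of members and 5.89% of the other cells at equal depth (15.8% and 10.9% unthinned). Genes of DNA replication were compared next. Of 14 S-phase genes, 4 were higher and 0 were lower (median 0.78), namely Mcm6 (1.52), Dut (1.43), Hells (1.39) and Tyms (1.10). At least 2 of the 25 S-phase genes were detected in 10.2% of members, 5.06% of the other cells and 43.9% of mitotic cells at equal depth (21.2% of members before thinning). Of the mitotic genes that the rule used, 4 could be tested, all 4 with ratios above 0, and 1 was higher (median 0.71). The rule dropped cells with at least 3 of these genes, so their levels were limited by it and are a description. Among 12 G1 cyclins, Myc and CDK inhibitors, Ccnd2 was higher, at 415 against 195 CPM (1.09, 1.02 to 1.17), Cdkn2b was lower, at 26.5 against 77.3 CPM (−1.54), and the median was −0.13. Ccnd1 had 201 against 107 CPM (0.91).

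Levels were also followed along the score, in bins that were not aligned to the cut. Non-mitotic cells were ordered by the score and divided into bins of about 646 cells each, with the lowest 2 of 10 merged because their cells all scored 0. Krt14 was at 545 CPM in the merged lowest group (1294 cells), at 386 in the next and at 4349 in the top bin. Wnt4 went from 144 to 359 CPM, Ccnd2 from 154 to 501, and Dlk2 from 2.21 to 51.8. Krt5 stayed between 3270 and 3812 CPM. In the opposite direction, Psca went from 4938 to 139 CPM, although not evenly, with 526, 643 and 187 CPM in the 3 bins before the last, Krt19 from 4348 to 822, Krt13 from 990 to 38.1 and Nrarp from 43.7 to 9.88. The summed hemidesmosome and basement membrane list went from 484 to 1548 CPM and the intermediate list from 15351 to 3501. The median depth was 3573 UMIs in the lowest group, 4558 in the next and 3001.5 in the top bin, and its part in these levels was not tested beyond the thinned shares above.

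**Figure D3:**
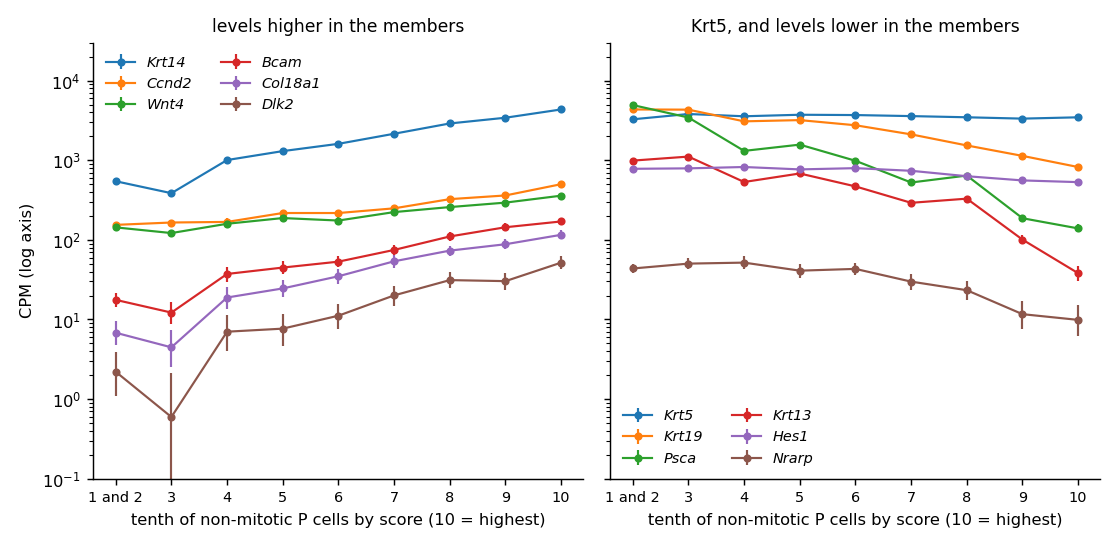
Level in CPM (log axis) of 12 genes in non-mitotic cells of P divided into 10 bins by score, the lowest 2 merged. Krt14, Ccnd2, Wnt4, Bcam, Col18a1 and Dlk2 climb toward the top bin, Krt5 is flat between 3270 and 3812 CPM, and Krt19, Psca, Krt13, Hes1 and Nrarp decline.

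Within single cells, the median level of intermediate markers was 30.2 per 10000 UMIs in members, 72.2 in the other non-mitotic cells and 28.9 in mitotic cells. The cornified envelope list had medians of 2.91, 7.55 and 2.52. Psca had a median of 0 in members and 1.68 in the others. Basal keratins and surface markers as a sum did not differ by set, with medians of 108, 107 and 105. Krt14 alone had medians of 33.9, 2.70 and 25.5, while Krt5 had 32.1, 33.5 and 32.3.

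The spread among the members was compared with counting error for each gene. The ratio of observed to counting variance across members had a median of 1.03 over 5074 genes, and 94 genes exceeded 2. Gm42418, a locus that overlaps ribosomal RNA sequence, led with 50.5, followed by Psca (39.3) and the nuclear RNA Malat1 (34.8). Krt13 (18.3), Ctla2a, Gsto1 (14.3), Sprr1a (10.4), Cxcl5 (9.73), S100a6 (8.31) and Cbr2 (8.26) completed the 10 most variable genes. Psca was found in 293 members (18.1%) and Krt13 in 12.1%, so that each was carried by a minority of the members. Krt19, another marker of the upper layers, was found in 70.8%. The keratins varied less (Krt15 7.44, Krt14 7.34, Krt17 3.21, Krt5 2.40). Of the score genes, on which the members were selected, Col17a1 had 1.32, Wnt10a 1.14, Dll1 1.09 and Trp63 1.05, while Ctla2a had the 15.2 given above.

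The mitotic cells of P were within 2-fold of the members for most genes tested, basal genes included. Over 6070 genes tested, 38 were at least 2-fold higher in members (0.626%) and 222 were at least 2-fold lower (3.66%). The median log2 ratio was −0.10. Of 17 hemidesmosome and basement membrane genes, 0 were called (median 0.17), and of 11 basal keratins and surface markers, 0 were called (median −0.17). For lists of this size, 0 calls are near the share over all genes, so they set the basal genes apart from no others. Krt14 was at 2891 CPM in the mitotic cells (0.36) and Wnt10a at 86.8 CPM (0.21, −0.06 to 0.49). Of the score genes, Dll1 (1.24), Ptprz1 (1.84) and Ctla2a (4.29) were higher in members, a difference in which the rule had a part. Ctla2a was found in 31 of 1617 members and in 1 of 353 mitotic cells, so its ratio rests on few cells. Of 12 S-phase genes, 10 were lower in members (median −1.70). Lower genes were led by regulators of mitosis outside the rule, with Cdc20 at 2.01 against 258 CPM. Above stood Hmox1, heme oxygenase 1 (1.88, 0.90 to 3.05), Nbl1, a secreted BMP antagonist (1.77), Bcl2 (1.38) and the ubiquitin ligase gene Fbxo32 (1.27).

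The same rule was then applied to the D library, whose cells are not among the members. The top 25% held 1221 cells against 3661 other non-mitotic cells, at a cut of 0.418, and only 14 cells were mitotic. The depths were 2911 and 3310 median UMIs. Over 9374 genes, 375 were at least 2-fold higher in the top 25% (4%) and 357 were at least 2-fold lower (3.81%). Among 8833 genes tested in both libraries, 281 were called higher in P and 294 in D, and 159 were called in both, which is 56.6% of the P calls and 54.1% of the D calls against 3.33% of all these genes called higher in D. For lower genes, 199 were called in both, 55.6% of 358 P calls and 71.1% of 280 D calls, against 3.17% called lower in D. Of the P calls, 266 of the higher and 343 of the lower genes had the same sign in D.

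Values in both libraries are given side by side. The hemidesmosome and basement membrane list had a median of 1.39 in P and 1.43 in D, and the intermediate list −1.24 and −1.29, while the integrins had 0.37 and 1.01. Col7a1 had ratios of 1.94 and 2.86, and Col18a1 of 2.08 and 2.68. Krt14 had ratios of 1.69 and 1.82, Wnt4 of 0.91 and 0.92, Dlk2 of 2.19 and 2.61 and Fzd6 of 1.09 and 1.01. Psca had −3.28 and −2.66. Values were further apart for Krt13 (−2.59 in P, −0.55 in D), Notch3 (−1.59, −0.57), Erbb2 (−1.11, −0.26), Bmp2 (1.32, −0.07), Ccnd2 (1.09, −0.23) and Tgfbi (1.69, 3.28). Jag1 had −0.37 in P and 0.46 in D. No test of these differences between libraries was made.

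**Figure D4:**
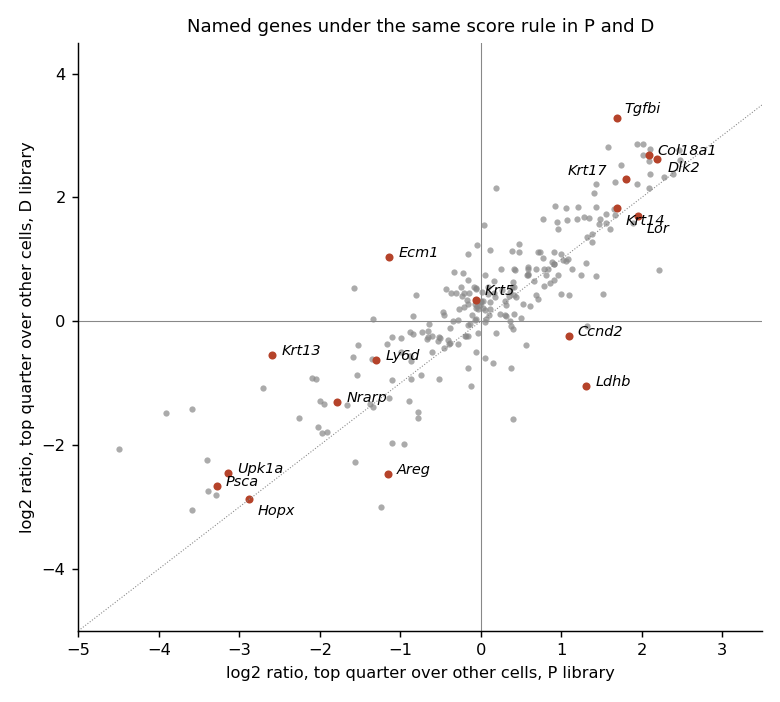
Log2 ratio of the top 25% over other non-mitotic cells in P (x axis) and D (y axis) for named genes that reached 100 UMIs in P and in D, 1 dot per gene. Krt14, at 1.69 and 1.82, lies near the dotted line of equal ratios, while Ecm1 (−1.14 and 1.04) and Ldhb (1.31 and −1.05) lie in opposite quadrants.

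Markers of other cell types were counted for all lists. Of 7 fibroblast markers, only Dcn was detected in members (30 UMIs, 9 in the other cells), and Col1a1, Col1a2 and Col3a1 were at 0. Of 4 smooth muscle markers, only Smtn was above 1 UMI in members (283, against 526 in the others). The 7 leukocyte markers summed to 5 UMIs in members and 21 in the others, the 5 endothelial markers to 50 and 79, the 4 glial markers to 21 and 37, and the 4 erythroid markers to 0 in both. Per 1000000 UMIs, the sums were 5.49 in members against 1.18 for fibroblast markers, 52.1 against 26.9 for smooth muscle, 9.15 against 4.04 for endothelial, 3.84 against 1.89 for glial and 0.915 against 1.07 for leukocyte markers, so that the sums of 4 lists were higher in members, mostly through Dcn, Smtn and Egfl7, at low levels apart from Smtn. Their part in the results was not tested. The endothelial markers Cdh5, Kdr and Cldn5 and the glial Sox10 were at 0. Of the 5% of P cells with the highest doublet scores, 109 were members (6.74% of members) and 183 were other non-mitotic cells (3.77%). The part of doublets in these results was examined by leaving those cells out, which gave 381 higher and 466 lower genes.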

How the data were processed

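Per the study's methods and the submitters' processing notes, the authors demultiplexed reads with bcl2fastq 2.19.0 and counted them with Cell Ranger 3.0.2 on GRCm38/mm10. The deposited matrices hold raw counts of UMIs per gene and barcode, with no normalization. UMI counts were summed over each set of cells and divided by the total of the set (CPM), so that levels are relative to all RNA counted, and a sum alone does not tell fewer cells with a gene from less RNA of it per cell. Of 31053 gene identifiers, 30934 were placed on GRCm38.

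The filter of over 800 genes and at most 12% mitochondrial UMIs follows the study's methods. It kept 6818 of 8194 barcodes in P and 4896 of 6975 in D, and a minimum of at least 800 genes would keep 6826 in P, which is the number of P cells in the study. The members and gene lists were chosen with earlier results of these data known. Named genes were the members of 31 lists, the 15 largest log2 ratios in each direction outside the score (0.5 UMI added, at least 100 UMIs) and the 10 most variable genes among members. Ecm1, Ldhb, Ctla2b, Timp3 and Ncam1 were chosen after their values were seen, as were the genes named from the comparison with mitotic cells. The lists covered score genes, mitotic genes of the rule, basal keratins, hemidesmosome and basement membrane, integrins, Wnt, Notch, Hedgehog, EGF, TGF-β, actin, YAP targets, adhesion, intermediate markers, uroplakins, transcription factors, cornified envelope, S-phase, G1, early-response, hypoxia and 6 other cell types.

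With 1 library per group no test was possible, and a gene was called at 2-fold or more. Thinning used seed 7. Scripts ran in Python 3.11.15 with numpy 2.4.6, scipy 1.17.1, pandas 2.3.3, scanpy 1.11.5 and matplotlib 3.10.9, and were tested on simulated data. The doublet caller in scanpy marked 0 of 6818 cells in P and 0 of 4896 in D and so had not worked. Leaving out the 5% of cells with the highest scores replaced it. Alternatives changed the cut, filter, scaling, minimum UMIs and score genes.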

Additional observations from a re-analysis of the deposited data

Results flagged for a closer look

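Of 281 genes called higher in P and tested in both libraries, 1 was called lower in D. Of 358 called lower in P, 1 was called higher in D. Over all 8833 genes tested in both, 3.17% were called lower and 3.33% higher in D, so opposite calls were rarer among the P calls. Ecm1, which encodes an extracellular matrix protein, had a log2 ratio of −1.14 in P (33.1 CPM in members, 72.8 in the other cells) and 1.04 in D. The value of Ecm1 in P was under 2-fold in 1 of 16 alternatives (−0.85). Among these alternatives, those of minimum UMIs leave the ratio of a single gene as it is. Ldhb, a lactate dehydrogenase subunit, had 1.31 in P (12.8 against 5.16 CPM) and −1.05 in D, and its value in P was under 2-fold in 3 of 16 alternatives (0.86 at the lowest). The counting intervals of all 4 values exclude 0, which adds little, since both genes were picked for passing 2-fold in each library. The difference between the libraries was not tested, since each condition held 1 library.

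Barcodes that the filter left out also carried the score genes. In the 1376 barcodes left out of P, the score genes had 2304 UMIs, which is 1157 per 1000000 non-mitochondrial UMIs (1110 to 1205), against 740 in the kept cells. The score of 361 of these barcodes (26.2%) reached the cut. Their median depth was 1657 UMIs. These barcodes entered no comparison, and the part of their low depth in the score was not tested.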

How the results depend on the processing

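No paired analysis was possible because each condition held 1 library. In P, 16 alternatives were computed and in D 2. Of 123 values followed, 75 were at least 2-fold in the setting reported, all 75 kept their sign under each alternative, and 65 stayed at least 2-fold under each. The settings of at least 20 and at least 500 UMIs left the ratio of each single gene unchanged. Scaling without mitochondrial and ribosomal protein genes, and setting the median to 0, moved all genes by the same small amount. Such settings could not reverse a 2-fold value, so the 16 alternatives are not 16 separate checks. In P, the calls that fell under 2-fold in some setting were Ccnd2 (to 0.84 at the lowest, in 4 of 16), Ldhb (0.86) and Erbb2 (−0.66, both in 3), Id2 (−0.98, in 2), and Ecm1 (−0.85), Ly6d (−0.99), Notch3 (−0.74), Nrarp (−0.90) and the intermediate list's median (−0.99), each in 1. In D, the integrin median fell just under 2-fold in 1 of 2. The count of calls depended on the minimum level. With at least 20 UMIs, 853 genes were higher and 675 lower in members, and with at least 500 UMIs 82 and 194. The shares of genes tested moved too, to 7.28% and 5.76% and to 1.81% and 4.29%. Against the 25% of cells with the lowest score, 578 were higher. The thinned score gave ties and 2127 members, with 298 higher and 328 lower genes. Values near 0 changed sign with the setting: Cd44 ranged from −0.17 to 0.12, Krt15 from −0.08 to 0.15, and the medians of Notch receptors and modifiers from −0.52 to 0.23 and of Wnt feedback genes from −0.25 to 0.14. The cause of these changes was not tested. The planned removal of doublets marked by the caller was not run, because 0 cells were marked. Leaving out the 5% with the highest scores, chosen after seeing the data, gave 381 and 466 calls in P and 398 and 398 in D. With 1 library per condition, no alternative speaks to the spread between cultures, and genes under 100 UMIs were limited by depth.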

Other observations

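Hypoxia targets were compared between members and the other non-mitotic cells. Of 13 tested, 0 were higher and 1 was lower, Ankrd37 at 35.3 against 90.2 CPM (log2 ratio −1.35), and their summed level was 4427 against 4713 CPM. Against mitotic cells, 2 of 13 were higher in members, Ndrg1, a stress-responsive gene (1.48, 1.16 to 1.82), and Adm, which encodes adrenomedullin (1.05), with a median of 0.34. Of 16 early-response genes, which dissociation of tissue can induce, 0 were called in either direction, with a median of −0.32.

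Between media, the top 25% of D and the members of P were both chosen by the score. They had close levels of Col17a1 (573 and 598 CPM), Jag2 (97.5 and 106), Dll1 (29.3 and 28.5), Itga6 (272 and 287) and Itgb4 (225 and 211). The other score genes were further apart, with Wnt10a at 155 and 100 CPM and Trp63 at 192 and 340. Ctla2a was at 7.91 and 23.6 CPM, and Ptprz1 at 0.428 and 19.4. Ribosomal protein genes took 21.8% of UMIs in the top 25% of D and 39.6% in the members of P, so CPM had a different base in each. The median log2 ratio of D over P was 0.44 over 7632 genes with at least 100 UMIs, and the genes with close levels lay below it. Among the genes above it, chosen after their values were seen, Timp3, an inhibitor of metalloproteinases, had 623 UMIs in D and 1 in P, Acta2 had 594 and 4, and Dcn, the proteoglycan decorin, had 775 and 30 (4.92). Cald1 was at 254 CPM in D and 35.1 in P (2.85), and Id1, a BMP target, at 451 and 105 CPM (2.11). Ncam1, an adhesion molecule, had a ratio of 3.93. Other matrix genes lay below it, such as Col17a1 (−0.06) and Col18a1 (0.22). Among genes further below were Egln3, a hypoxia target, at 10.1 CPM in D and 323 in P (−5.01), Vegfa, the vascular growth factor, at 10.1 and 89.3 (−3.15), and Pgk1, a glycolytic enzyme, at 162 and 1178 (−2.87). Ccnd1, cyclin D1, was at 38.7 and 201 CPM (−2.38). These ratios compare 1 library with 1 library, and medium and library cannot be told apart.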
